A study of Mus musculus with 12 samples.

Results

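CK666 was added to mouse bone marrow-derived mesenchymal stem cells that also received cytochalasin D, and the transcriptome of these cells was compared with that of cells given cytochalasin D alone. Each side had 3 RNA-seq libraries, labelled CytoD+CK and CytoD, which are 6 of the 12 libraries in the series. Membership was set by the treatment label and used no measured value. The other 6 libraries were 3 of untreated cells (Ctrl) and 3 of cells given CK666 without cytochalasin D, and they serve to set the change with CK666 in the presence of cytochalasin D beside the change in its absence. The medium held 10% serum in every group, the plating density was 10000 per square centimetre, cells were left for 1 day, and the treatments lasted 24 h. The comparison asks what CK666, an inhibitor of the Arp2/3 complex, does in cells that also received cytochalasin D, which disrupts actin filaments. The libraries measure RNA only, so neither filament state nor Arp2/3 activity was observed. The sources used here give neither concentrations nor the order of addition, nor the strain, sex and age of the mice. The labels do not say whether replicates were separate animals, isolations or culture wells. The p-values therefore speak only of the scatter among libraries within groups, and that scatter may be technical. It was estimated from all 12 libraries in 1 fit, not from the 6 alone.

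The Arp2/3 complex starts new actin filaments as branches on the sides of existing ones when WASP-family proteins switch it on. CK666 is a small molecule that holds the complex in its inactive shape, whereas cytochalasin D, a fungal metabolite, caps the growing end of filaments of any kind. Unassembled actin binds the cofactor MRTF and so limits the transcription factor SRF, and tension on filaments governs the coactivators YAP and TAZ. Marrow stromal cells can form fat or bone, and a loss of cytoskeletal tension is known to favour fat.

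The summed gene counts were between 48930210 and 69269716 per library, and 13534 genes were tested with edgeR's quasi-likelihood test. At a Benjamini-Hochberg adjusted p under 0.05, 4055 genes were called, 30.0% of those tested: 2121 higher (15.7%) and 1934 lower (14.3%) in CytoD+CK. With a 2-fold limit the counts were 252 genes higher and 532 lower. The CytoD and CytoD+CK libraries did not overlap for 7168 of the 13534 genes, 3949 higher and 3219 lower. A lack of overlap alone therefore sets no gene apart, and it was a condition for naming the largest changes. The median log2 change over all tested genes was 0.02. Upper quartile scaling in place of TMM moved that median by -0.05 and gave 1546 genes higher and 2296 lower, so which direction held more genes depended on the scaling. CytoD+CK replicate 1 was the lowest of its group for 198 of the 252 genes that were at least 2-fold higher, and the highest for 258 of the 532 that were at least 2-fold lower. Without it 276 and 553 genes passed these limits. Of the marrow stromal markers, Pdgfra, Pdgfrb, Prrx1, Col1a2 and Cxcl12 had means over 100 CPM in both groups, while Lepr, Eng and Thy1 were at a mean of 2.19 CPM (counts scaled by TMM to a common library size) or less. Of 9 tested markers 7 fell. Ptprc, the pan-leukocyte marker, and Emr1, C1qb and Fcgr1 were at 0 in all 6 libraries, and the summed level of 13 macrophage markers ran from 12.6 to 13.5 CPM in CytoD and from 8.24 to 8.98 CPM in CytoD+CK, with 3 of 6 tested members lower. The part of other cells in any result was not tested, and in bulk RNA fewer cells of a type and less RNA per cell cannot be told apart.

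**Figure D1:**
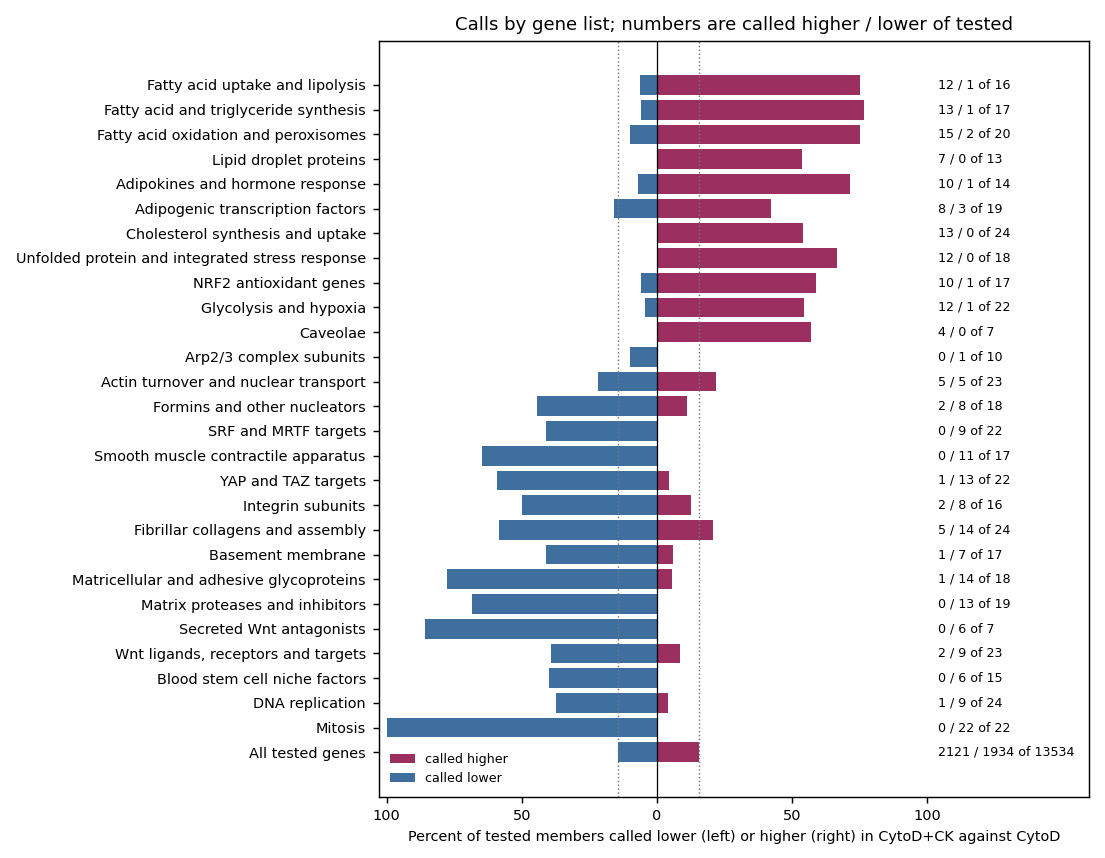
Percent of the tested members of 27 gene lists, and of all tested genes, called higher (right) or lower (left) in CytoD+CK against CytoD, with the counts at the right and dotted lines at the percent over all tested genes. Lipid, sterol and stress lists lie to the right, and contractile, matrix, Wnt antagonist and mitosis lists to the left, with mitosis at 22 of 22 lower.

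The genes raised most included several that are not lipid droplet or adipokine genes. Sptlc3, a subunit of the serine palmitoyltransferase that opens sphingolipid synthesis, lies at chromosome 2, 139493920 to 139637674 (GRCm38). It had 0.123, 0.134 and 0.397 CPM in the 3 CytoD libraries and 4.25, 8.52 and 8.22 CPM with CK666 added, a 31.6-fold rise (log2 change 4.98 ± 0.40, SE, adjusted p = 2.06e-06 by the quasi-likelihood test in edgeR, Benjamini-Hochberg adjusted). The groups did not overlap, and CytoD+CK replicate 1 was the lowest of its group. Mcam, the CD146 adhesion molecule of pericytes and endothelium, went from 1.19, 1.91 and 2.09 CPM to 28.5, 44.01 and 42.4 CPM and was 21.9-fold higher (log2 4.45 ± 0.40, adjusted p = 5.33e-06). Of 10 endothelial markers Tek and Vwf had enough counts to be tested and neither was called, with Vwf at a mean of 2.22 CPM in CytoD and 3.18 CPM in CytoD+CK. Col15a1, a collagen of basement membrane zones, stood at 11.96, 11.2 and 9.68 CPM and then at 93.3, 99.7 and 97.2 CPM, 8.84-fold higher. Itih4, a secreted protease inhibitor relative, rose 8.81-fold, B3galt2, a galactosyltransferase, 12.8-fold, and Nat8l, which makes N-acetylaspartate, 14.4-fold. B3galt2 overlaps Cdc73, at 41.2 CPM in CytoD and 45.6 CPM in CytoD+CK, and the sources used here do not say whether reads were counted by strand. The same holds for Angpt2, Fhod3, Mkl1, Nid2, Pcx, Phospho1, Srebf1, Tagln and Tk1, each of which overlaps another gene with at least 2.55 CPM. Overlap was taken between whole gene spans, and how many reads could belong to either gene was not examined.

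Genes of lipid uptake, synthesis, storage and breakdown were higher with CK666 added. Among genes of fatty acid uptake and lipolysis 12 of 16 tested were called higher and 1 lower, with a median log2 change of 1.21. In fatty acid and triglyceride synthesis 13 of 17 rose and 1 fell (median 1.01), and in fatty acid oxidation and peroxisomes 15 of 20 rose and 2 fell (median 0.52). Of 13 lipid droplet proteins 7 rose and none fell (median 0.73). Over all tested genes 15.7% were called higher.

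In the supply of fatty acids, Scd1, the desaturase that makes oleate, was at 874, 709 and 707 CPM in CytoD and 4111, 4816 and 4491 CPM in CytoD+CK, with no overlap. It rose 5.86-fold (log2 2.55 ± 0.14, adjusted p = 1.15e-07). Acsl1, which couples fatty acids to coenzyme A, held 125, 123 and 121 CPM without CK666 and 601, 943 and 901 CPM with it, a 6.62-fold rise. CytoD+CK replicate 1 was the lowest of its group, and the groups did not overlap. Fasn, fatty acid synthase, rose 2.16-fold from a mean of 188 to 407 CPM, while the elongase Elovl6 was the member that fell, from 24.2, 23.1 and 23.6 CPM to 12.98, 14.2 and 14.5 CPM.

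Genes of the glycerol backbone and its acylation rose as well. Gpd1 makes glycerol 3-phosphate from a glycolytic intermediate and went from 3.70, 3.46 and 3.39 CPM to 15.2, 26.2 and 25.6 CPM, 6.36-fold higher. Agpat9 adds the first acyl chain. Its libraries read 14.8, 15.7 and 13.9 CPM in CytoD and 103, 168 and 165 CPM in CytoD+CK (9.81-fold, log2 3.29 ± 0.20, adjusted p = 2.23e-07). Agpat2, which adds the next, rose 3.55-fold, and Dgat2, which closes the triglyceride, 3.63-fold. Pcx, the pyruvate carboxylase that feeds citrate export, rose 2.92-fold to a mean of 646 CPM.

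Storage and release genes moved in the same direction. Plin1, the droplet coat that gates lipolysis, had 139.6, 139.8 and 144 CPM in CytoD and 524, 738 and 673 CPM in CytoD+CK (4.56-fold, adjusted p = 2.66e-06). Cidec, which fuses droplets, went from 4.36, 4.76 and 4.30 to 21.9, 41.5 and 39.95 CPM and was 7.69-fold higher. Fitm2, a protein of droplet budding, rose 2.41-fold. On the breakdown side, Pnpla2, the triglyceride lipase, rose 4.33-fold and Mgll, the monoglyceride lipase, 11.2-fold. G0s2, an inhibitor of Pnpla2, also rose, 2.80-fold, from 126, 142 and 142 CPM to 283, 449 and 414 CPM. Adig, a small adipocyte protein, was also higher, at a mean of 0.527 CPM in CytoD and 9.29 CPM in CytoD+CK.

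Of the oxidation genes, Cpt2 of the mitochondrial carnitine shuttle rose 1.84-fold and Hadhb of the trifunctional enzyme 1.64-fold, and the libraries of neither overlapped between groups. Pdk4, a kinase that restrains the oxidation of pyruvate within the mitochondrion, fell from 175, 171 and 165 CPM to 136, 121 and 121 CPM. Ppargc1b, a coactivator of mitochondrial genes, rose 3.55-fold, to 16.4 CPM. The adipogenic transcription factors were divided. Of 19 tested, 8 rose and 3 fell, and the median was 0.01, close to that of all genes. Srebf1, the regulator of fatty acid synthesis, rose 2.10-fold and Stat5a 1.45-fold, and Klf2, which restrains fat cell formation, fell 1.96-fold. Mlxipl, the glucose-sensing factor ChREBP, rose 3.85-fold at a mean of 1.36 CPM. Among adipokines and hormone response genes 10 of 14 rose and 1 fell (median 0.81). Retn, resistin, rose 3.82-fold, the adiponectin receptor Adipor2 2.87-fold and the insulin-responsive glucose transporter Slc2a4 2.60-fold. The member that fell was Rbp4, the retinol carrier, at 7.98, 9.90 and 9.78 CPM in CytoD and 3.59, 4.34 and 4.87 CPM in CytoD+CK. Caveolae, membrane pits that fat cells carry in abundance, had 4 of 7 tested members higher and none lower. Cav2 went from 80.5, 82.3 and 87.2 CPM to 170.2, 195 and 217 CPM, 2.33-fold higher, and Sdpr (cavin 2) was 1.39-fold higher.

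**Figure D2:**
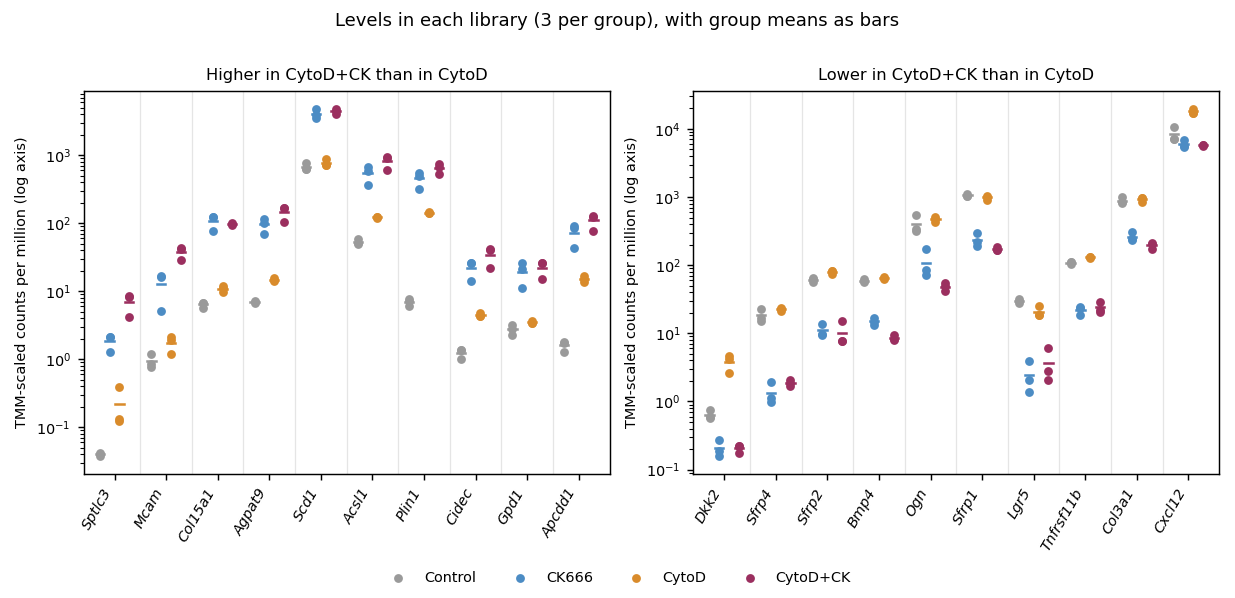
Level in each library, in TMM-scaled CPM on a log axis, of 10 genes that were higher and 10 that were lower in CytoD+CK than in CytoD, with points for the 3 libraries of each of the 4 groups and bars for group means. In all 20 genes the CytoD and CytoD+CK points do not overlap.

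Sterol synthesis genes were higher than in CytoD alone, though not than in untreated cells. Of 24 genes of cholesterol synthesis and uptake 13 were called higher and none lower, where 15.7% of all tested genes were called higher. The median log2 change was 0.34, and 23 of the 24 had a change above 0. In CytoD against Ctrl 23 of the 24 were called lower. The summed level of the list was 2564 to 2804 CPM in Ctrl, 1506 to 1683 CPM in CytoD and 1800 to 2143 CPM in CytoD+CK. Hmgcs1, which makes the precursor of mevalonate, held 114, 101 and 110.5 CPM in CytoD and 154, 204 and 228 CPM in CytoD+CK and rose 1.80-fold (adjusted p = 0.000449). Dhcr7, the last step to cholesterol, rose 1.74-fold, Hsd17b7 1.66-fold and Nsdhl 1.63-fold, both of which work on the sterol ring. Export genes were higher as well: 4 of 9 tested rose and 1 fell, with the transporters Abcg1 up 2.48-fold and Abca1 2.01-fold and the lipoprotein receptor Scarb1 2.30-fold. The reference promoter of Hmgcs1 is given because it carries both a sterol motif and 3 CCAAT boxes within the 250 bases before the start. It is RefSeq sequence (GRCm38.p6, chr13:119690101-119690350, plus strand), 5′ to 3′, with CCAAT on either strand and TCACNCCAC in capitals.
Hmgcs1: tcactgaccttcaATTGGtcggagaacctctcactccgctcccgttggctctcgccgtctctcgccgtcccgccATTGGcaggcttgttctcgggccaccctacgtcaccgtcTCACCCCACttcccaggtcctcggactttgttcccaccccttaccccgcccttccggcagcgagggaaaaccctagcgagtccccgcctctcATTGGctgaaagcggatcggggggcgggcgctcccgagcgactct
TCACNCCAC was found in 0.959% of the 10634 tested genes' promoters that could be matched and CCAAT in 36.6%. Only 16 of the 24 sterol genes had a promoter in the reference, so no share is given for the list.

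Stress response genes were higher than in CytoD alone, where 15.7% of all tested genes were called higher. The list for the unfolded protein and integrated stress responses had 18 members, of which 12 rose and none fell (median 0.45). The count of 12 dropped to 6 without CytoD replicate 3. The list's summed level was 2492 to 2709 CPM in Ctrl, 2073 to 2146 CPM in CytoD and 2392 to 2509 CPM in CytoD+CK. In CytoD against Ctrl 6 of the 18 were called lower and 7 higher. Slc7a11, the cystine importer, had 2.10, 1.58 and 1.73 CPM in CytoD and 6.88, 4.85 and 4.13 CPM in CytoD+CK and rose 2.94-fold (adjusted p = 0.00031). The serine synthesis enzymes Phgdh and Psat1 rose 1.97-fold and 1.80-fold, from means of 62.9 and 49.1 CPM. In the NRF2 antioxidant list 10 of 17 rose and 1 fell, with the metal-binding Mt2 up 2.76-fold and catalase, Cat, 1.94-fold. Glycolysis and hypoxia genes counted 12 of 22 higher and 1 lower: Pfkfb3, which raises flux through the pathway, rose 2.22-fold, hexokinase Hk2 1.80-fold and Pgk1 1.42-fold. In CytoD against Ctrl 12 of these 22 were called lower and 1 higher. The summed level of the glycolysis list was 6165 to 6718 CPM in Ctrl, 3856 to 4218 CPM in CytoD and 4963 to 5501 CPM in CytoD+CK.

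Secreted regulators of Wnt and BMP signalling were among the genes that fell. Of 7 tested secreted Wnt antagonists 6 fell and none rose, and their median log2 change was -2.50, against 14.3% of all genes called lower. Dkk2, an inhibitor at the LRP coreceptor, had 2.63, 4.26 and 4.66 CPM in CytoD and 0.222, 0.226 and 0.176 CPM in CytoD+CK, an 18.3-fold fall (log2 -4.19 ± 0.29, adjusted p = 5.3e-07). Of the frizzled-related decoys, Sfrp4 went from 22.7, 23.2 and 21.6 CPM to 2.07, 1.89 and 1.69 CPM, 11.9-fold lower. Sfrp2 read 83.5, 81.00 and 73.9 CPM and 14.9, 7.81 and 7.62 CPM, 7.87-fold lower. Sfrp1 dropped from 907, 1009 and 1050.0 to 188, 169 and 167 CPM, 5.67-fold (adjusted p = 1.24e-07). The groups did not overlap for any of these 4. Sfrp5, the tested member that was not called, was the 1 with a change above 0 (log2 1.235, also without overlap). The summed level of the antagonist list came to 1180 to 1323 CPM per CytoD library and to 260.2 to 293 CPM per CytoD+CK library.

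Wnt ligands, receptors and targets counted 9 of 23 lower and 2 higher, where 14.3% of all tested genes were called lower and 15.7% higher. Lgr5, the R-spondin receptor and Wnt target, held 25.3, 18.6 and 18.4 CPM and then 6.10, 2.09 and 2.79 CPM (5.74-fold lower, adjusted p = 0.000182), and CytoD+CK replicate 1 was the highest of its group. Nkd1, a feedback inhibitor induced by Wnt, fell 4.48-fold and the ligand Wnt4 4.46-fold. Apcdd1, a membrane inhibitor of Wnt receptors, went the other way, from 13.6, 15.2 and 16.8 CPM to 76.1, 128 and 125 CPM, 7.23-fold higher. Bmp4 (chromosome 14, 46383520 to 46390599, GRCm38) also fell, at 63.6, 67.6 and 65.7 CPM in CytoD and 8.13, 9.51 and 8.12 CPM in CytoD+CK, 7.63-fold lower with an adjusted p of 3.21e-09. Bmp5 fell 2.35-fold and Atoh8, a BMP target, 1.68-fold. Of the 17 genes of the BMP list 5 fell and 1 rose (8 fell in the fit with the replicate number as a block). In the main fit 35.3% of the BMP list was called in either direction, against 30.0% of all tested genes, so it did not stand out. In the TGF-beta list 9 of 17 fell and 1 rose, among them the ligand Tgfb3 (2.17-fold) and follistatin, Fst (3.44-fold), which binds activin. Igf2 fell 3.20-fold, Dio3, the deiodinase that inactivates thyroid hormone, 11.6-fold, and Phactr1, an actin- and phosphatase-binding protein, 8.21-fold.

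Of 15 tested niche factors of blood stem cells 6 fell and none rose (median -0.45), where 14.3% of all tested genes were called lower and 15.7% higher. Cxcl12, a chemokine that keeps blood stem cells in the marrow, lies at chromosome 6, 117168535 to 117181368 (GRCm38) and had 19869.5, 17072 and 17214 CPM in CytoD and 5848, 5707 and 5683 CPM in CytoD+CK, 3.14-fold lower (log2 -1.65 ± 0.15, adjusted p = 6.52e-06). All CytoD libraries lay over the CytoD+CK libraries. Vcam1, an adhesion receptor for blood cells, fell 2.75-fold, from 526, 477 and 478 CPM to 188, 173 and 177 CPM, the lymphoid cytokine Il7 2.51-fold and Angpt2 3.27-fold. Complement was lower in 7 of 13 tested members and higher in 1, with the protease C1s down 2.33-fold. In the chemokine list 4 of 16 fell (7 with the replicate number as a block) and 1 rose: Cxcl1 fell 2.02-fold and Ccl2 rose 1.87-fold. The interferon list had 4 of 22 lower and 1 higher, with Ifit2 2.57-fold lower. In either direction 31.25% of the chemokine list and 22.7% of the interferon list were called, against 30.0% of all tested genes, so neither list stood out. The interferon count of 4 depended on the fit: it was 2 without any 1 of CytoD replicates 1 and 2 and CytoD+CK replicates 2 and 3, 8 in a fit of CytoD and CytoD+CK alone and 9 with the replicate block in that fit.

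In each of the bone lists more members were called lower than higher. Of the osteoblast transcription factors 6 of 13 fell and 2 rose, of bone matrix and mineralization genes 5 of 15 fell and 1 rose, and of osteoclast control genes and hormone receptors 4 of 9 fell and 1 rose. The shares over all tested genes were 14.3% lower and 15.7% higher, and these lists are small. The count of lower osteoblast factors was 3 without CytoD replicate 3 or CytoD+CK replicate 3, and that of bone matrix genes was 3 without CytoD replicate 2 or 3. Tnfrsf11b, osteoprotegerin, which blocks osteoclast formation, was at 134, 131 and 129 CPM in CytoD and 29.2, 20.6 and 22.2 CPM in CytoD+CK, 5.46-fold lower (adjusted p = 1.05e-07). Csf1, which promotes osteoclast precursors, fell 1.51-fold. Among the members that rose were the growth hormone receptor Ghr (1.70-fold), Dlx3 (1.87-fold) and the mineralization phosphatase Phospho1 (1.95-fold). Receptors of growth factors that fell included Fgfr2 (2.05-fold), and the hedgehog antagonist Hhip fell 2.93-fold, from 18.5, 20.4 and 23.5 to 6.69, 7.17 and 7.45 CPM.

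Extracellular matrix genes were mostly lower, with single members higher, where 14.3% of all tested genes were called lower and 15.7% higher. Matricellular and adhesive glycoproteins counted 14 of 18 lower and 1 higher (median -0.52), matrix proteases and inhibitors 13 of 19 lower and none higher (median -0.52), and small leucine-rich proteoglycans 5 of 8 lower and 1 higher (median -1.87). Ogn, osteoglycin, held 435, 473 and 503 CPM in CytoD and 41.2, 49.3 and 54.1 CPM in CytoD+CK, 9.77-fold lower. Podn, another member of that family, rose 3.17-fold. Thbs1, thrombospondin, fell 2.52-fold, from 9293, 11066 and 10876 CPM to 4588, 3891 and 3927 CPM. Mfap5 of microfibrils fell 4.25-fold and Fbln5 of elastic fibres 3.16-fold. For fibronectin, Fn1, the fall was 1.31-fold (adjusted p = 0.0423) and was lost on leaving out any of 5 libraries, with adjusted p between 0.0873 and 0.161.

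Collagens moved in both directions. Of 24 fibrillar collagen and assembly genes 14 fell and 5 rose, where 14.3% of all tested genes were called lower and 15.7% higher. Col3a1, the collagen of compliant tissue, had 831, 965 and 971 CPM in CytoD and 173, 209.7 and 203 CPM in CytoD+CK, 4.73-fold lower (adjusted p = 1.15e-07). Col1a1 fell 1.87-fold and the crosslinking enzyme Lox 2.31-fold, from a mean of 7302 to 3160.4 CPM. In contrast, Col6a3, the largest chain of the beaded collagen around fat cells, rose from 1779.7, 1827 and 1824 CPM to 3759.9, 4352 and 4004 CPM, 2.23-fold. Col5a3 rose 3.30-fold. The collagenase Mmp13 went from 70.4, 68.5 and 69.5 to 15.1, 11.7 and 14.01 CPM and was 5.11-fold lower, and the aggrecanase-family protease Adamts1 3.96-fold. In the basement membrane list 7 of 17 fell and 1 rose, with Nid2 down 2.86-fold and the laminin chain Lama1 3.25-fold. Among the integrins 8 of 16 tested fell and 2 rose. The laminin receptors Itga6 and Itga7 were the 2 that rose, 4.25-fold and 2.12-fold, whereas the collagen receptor Itga11 fell 3.56-fold (adjusted p = 7.38e-08) and Itga8 4.01-fold. Itga6 held 13.3, 15.3 and 14.4 CPM in CytoD and 48.4, 66.7 and 68.1 CPM in CytoD+CK.

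Of the 10 Arp2/3 subunits 1 was called lower and none higher, where 30.0% of all tested genes were called. Actr2 had 306, 284 and 300.1 CPM in CytoD and 296, 261 and 279 CPM in CytoD+CK (log2 change -0.09 ± 0.08, adjusted p = 0.461), and Actr3 404, 381 and 396 CPM and 405, 334 and 340.1 CPM (log2 -0.13 ± 0.10, adjusted p = 0.339). The groups overlapped for both. Arpc2 (log2 -0.05 ± 0.08) and Arpc1b (log2 -0.14 ± 0.09) were not called either. Arpc1b was called lower in a fit of CytoD and CytoD+CK alone (adjusted p = 0.0404) and without CK666 replicate 3 (0.0194). With the replicate block in the fit of those groups Arpc1b, Actr3 and Actr2 were called (0.00814, 0.0209 and 0.0411), and 4 subunits in all were lower. The subunit called lower was Actr3b, a paralog of Actr3, at 5.26, 3.56 and 4.22 CPM and 2.92, 1.64 and 1.31 CPM, and its call was lost without CytoD+CK replicate 2 or 3 (adjusted p = 0.0538 and 0.0531). Among 18 activators and branch regulators 2 rose: the WAVE protein Wasf1, from 13.2, 12.9 and 12.7 CPM to 26.7, 28.7 and 28.8 CPM (2.17-fold), and Coro1b, which helps to dismantle branches (1.38-fold). Wasl, the N-WASP activator, was not called (log2 0.07 ± 0.11). Of formins and other nucleators 8 of 18 fell and 2 rose: Daam2 fell 2.17-fold, Diap3 1.86-fold and the leiomodin Lmod1 2.15-fold, and Fhod3 rose 1.63-fold. Of the actin monomer handlers, Tmsb4x, thymosin beta 4, fell from 684, 667 and 699 CPM to 318, 346 and 325 CPM, and Mical2, an enzyme that oxidises nuclear actin, rose 1.35-fold.

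Contractile genes were lower with CK666 added, where 14.3% of all tested genes were called lower. Of 17 smooth muscle contractile genes 11 fell and none rose, and all 17 had a log2 change below 0 (median -0.52). Mylk, myosin light chain kinase, had 493, 543 and 537 CPM in CytoD and 176, 162 and 169 CPM in CytoD+CK, 3.10-fold lower. Mustn1 fell 2.51-fold. Tagln, a classical SRF target, was not called, with 71.7, 71.1 and 71.6 CPM and 71.1, 68.2 and 59.7 CPM (log2 -0.11 ± 0.14). Of the actins, Actb went from 2047, 1834 and 2077 CPM to 1417, 1331 and 1283 CPM, 1.48-fold lower with an adjusted p of 0.000392. The falls of Acta2 (1.36-fold, adjusted p = 0.0118) and Actg1 (1.21-fold, adjusted p = 0.0356) passed the test as well. Leaving out CytoD+CK replicate 2 or 3 ended the call for Acta2 (adjusted p = 0.0531 and 0.0606), and leaving out any library but CytoD+CK replicate 1 ended that of Actg1 (0.0737 to 0.140). Actin genes are near-identical in their coding parts, and reads may be divided between them.

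SRF and MRTF targets gave 9 of 22 lower and none higher (median -0.24). YAP and TAZ targets gave 13 of 22 lower and 1 higher (median -0.30), where 14.3% of all tested genes were called lower and 15.7% higher. The YAP count was 6 without CytoD replicate 2, 8 without CytoD replicate 3, 5 without CytoD+CK replicate 2 and 4 without CytoD+CK replicate 3. Srf (log2 -0.15 ± 0.13), its cofactor Mkl1 (-0.12 ± 0.09) and Yap1 (-0.08 ± 0.07) were not called. Srf was called lower in a fit of CytoD and CytoD+CK alone (adjusted p = 0.0370) and with the replicate block in that fit (0.00663). Fhl2, a LIM protein induced by SRF, held 464, 423 and 443 CPM in CytoD and 162, 114 and 124 CPM in CytoD+CK, 3.33-fold lower (adjusted p = 6.45e-07), and Csrp2 fell 2.57-fold. Of the standard YAP readouts, Ctgf went from 144, 155 and 149 CPM to 118, 98.9 and 95.7 CPM (1.43-fold lower, adjusted p = 0.046) and Cyr61 went from 234, 381 and 339 CPM to 198, 192 and 155 CPM (1.75-fold lower, adjusted p = 0.0255). Both calls were lost in several leave-one-out fits, with adjusted p up to 0.145 for Ctgf and 0.110 for Cyr61, and also without the low-count filter and with the gene length trend removed. The replicate block ended the call of Ctgf (adjusted p = 0.0531), and in the fit of CytoD and CytoD+CK alone it ended that of Cyr61 (0.122). Vgll3, a cofactor of the TEAD factors, fell 2.25-fold and the kinase Nuak2 1.78-fold. Pdlim2, an adaptor of actin filaments, fell 2.20-fold. The Fhl2 promoter is shown for its CArG box, the SRF element, in capitals (RefSeq, GRCm38.p6, chr1:43163962-43164211, minus strand, 250 bases before the start).
Fhl2: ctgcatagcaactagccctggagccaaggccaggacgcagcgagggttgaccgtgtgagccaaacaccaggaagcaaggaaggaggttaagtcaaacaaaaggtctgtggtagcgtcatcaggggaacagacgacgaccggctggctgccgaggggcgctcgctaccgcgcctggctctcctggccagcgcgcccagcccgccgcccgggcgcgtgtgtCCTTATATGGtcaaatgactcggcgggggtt
A CArG box was found in 5 of 18 matched promoters of the SRF list (27.8%) and in 1.22% of the 10634 matched promoters of tested genes. The list was drawn up from known SRF targets, which are known by such elements.

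All 22 tested mitosis genes were called lower, and the log2 changes ran from -1.19 to -0.33 (median -0.89), where 14.3% of all tested genes were called lower. The summed level of the 22 genes was 472, 424 and 429.5 CPM in the CytoD libraries and 266, 227 and 237 CPM in the CytoD+CK libraries. Ccnb2, a cyclin of mitotic entry, had 12.1, 12.3 and 11.7 CPM and 5.66, 5.39 and 4.76 CPM, 2.28-fold lower (adjusted p = 6.47e-05). Kif11, the motor that separates spindle poles, fell 2.19-fold, the kinase Plk1 2.15-fold and the kinetochore protein Cenpf 2.13-fold. Birc5, survivin, a mitotic gene listed among YAP targets, fell 1.93-fold, and Lmnb1, lamin B1, 1.79-fold. In the DNA replication list 9 of 24 fell and 1 rose, with a median log2 change of -0.17. Tk1, thymidine kinase, fell 1.62-fold and Rrm1, a subunit of ribonucleotide reductase, 1.47-fold, while Ccne1, the cyclin of S phase entry, rose from 8.76, 9.29 and 9.28 CPM to 11.5, 13.7 and 12.7 CPM. Ccnd1, cyclin D1, fell 1.56-fold. No test compared the 2 lists.

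Promoters of mitotic genes are known for CCAAT boxes and for an element called the cell cycle homology region (CHR, TTTGAA). Those of Ccnb2 (GRCm38.p6, chr9:70421555-70421804, minus strand) and Kif11 (chr19:37376132-37376381, plus strand) are shown as examples of genes that fell together. The 250 bases before the start are from RefSeq, with both motifs in capitals on whichever strand they lie. In Ccnb2 the TTTGAA match lies farther from the start than all 3 CCAAT boxes, and in Kif11 it lies nearer the start than the CCAAT box.
Ccnb2: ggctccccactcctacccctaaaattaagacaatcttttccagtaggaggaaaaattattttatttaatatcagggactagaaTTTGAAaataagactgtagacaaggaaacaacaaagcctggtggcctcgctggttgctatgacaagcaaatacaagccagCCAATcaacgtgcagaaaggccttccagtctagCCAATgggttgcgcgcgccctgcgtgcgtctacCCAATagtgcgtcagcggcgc
Kif11: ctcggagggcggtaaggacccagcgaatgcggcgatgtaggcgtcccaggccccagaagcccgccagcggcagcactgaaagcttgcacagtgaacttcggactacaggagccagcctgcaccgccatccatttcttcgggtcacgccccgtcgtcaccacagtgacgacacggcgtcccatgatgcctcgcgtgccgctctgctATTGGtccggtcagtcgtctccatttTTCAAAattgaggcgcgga
CCAAT occurred in 16 of 19 matched mitosis promoters (84.2%) and in 36.6% of the matched promoters of all tested genes. TTTGAA occurred in 8 of 19 (42.1%) and in 10.4%. The motifs do not overlap. For genes called at least 2-fold higher or lower, 170 of 252 and 364 of 532 had a reference promoter, under the 80% set as a minimum, so motif shares of those sets are void and are not given. The tested genes as a whole were at 78.57%, also under that minimum, so the shares printed for them describe the matched promoters only and set no list apart.

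**Figure D3:**
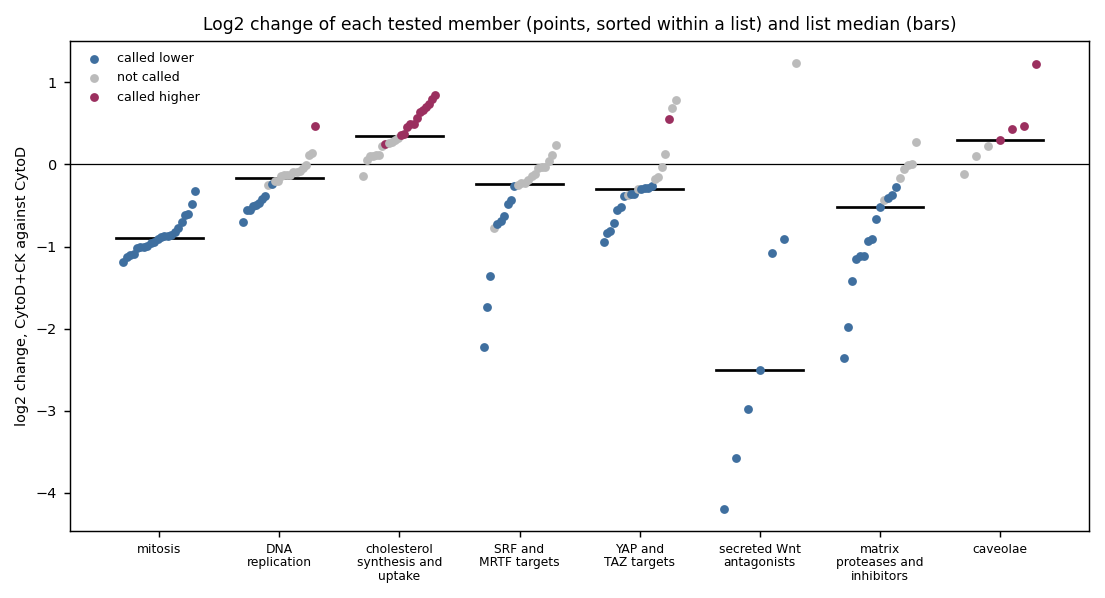
Log2 change in CytoD+CK against CytoD of every tested member of 8 gene lists, sorted within each list, with bars at the list medians. All 22 mitosis genes lie below 0 and 23 of 24 cholesterol genes above it, and 6 of 7 Wnt antagonists are called lower.

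Whether CK666 acted alike with and without cytochalasin D was tested gene by gene, as the difference between the CytoD+CK against CytoD change and the CK666 against Ctrl change, which share no library. The difference was called for 1941 genes, 14.3% of those tested, 892 of them higher (6.59%) and 1049 lower in the presence of cytochalasin D. The number depended on CK666 replicate 3, which stood apart from the other CK666 libraries: it was 3443 without that library, and 1099 without CytoD replicate 2. In CK666 against Ctrl 5574 genes were called (41.2%), 2528 of them lower (18.7%). Of the 4055 genes called here 64.1% were also called there, which is 46.6% of the 5574, and 2443 of the 2600 shared genes had the same sign. Across all tested genes the log2 changes had a Pearson correlation of 0.59, a description over genes that are not independent replicates.

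**Figure D4:**
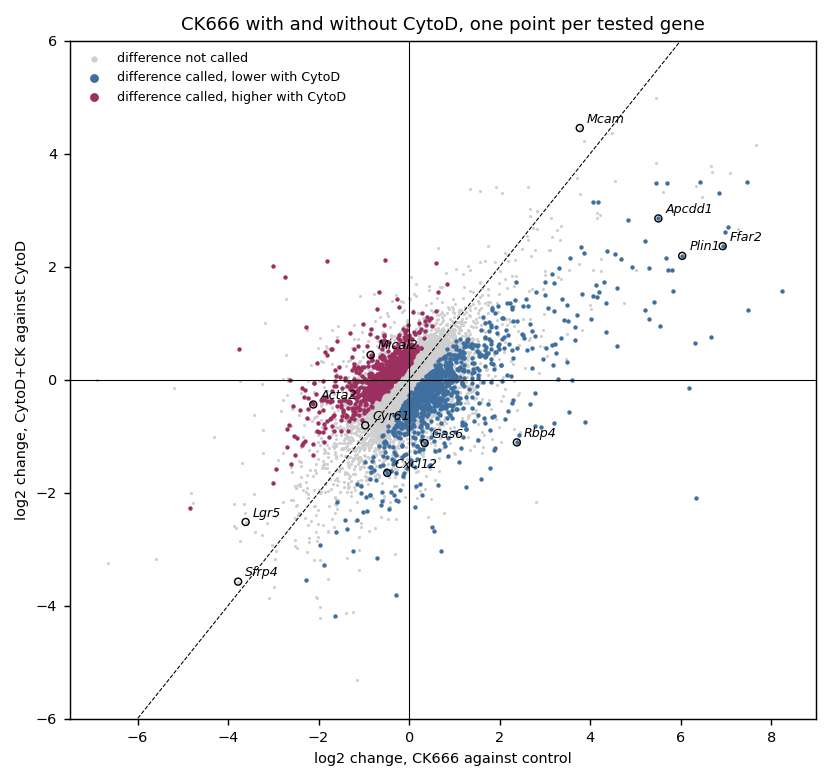
Log2 change of each tested gene on addition of CK666 in the presence (vertical) and absence (horizontal) of cytochalasin D, coloured where the difference was called, with the line of equal change dashed. Plin1 and Apcdd1 lie under it, and Rbp4 and Gas6 lie at the lower right, with opposite signs in the 2 backgrounds.

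Several adipocyte genes rose in both backgrounds, with a smaller log2 change where cytochalasin D was present. Plin1 had 7.61, 6.09 and 7.21 CPM in untreated cells and 315, 502 and 554 CPM with CK666 alone, a log2 change of 6.03, against 2.19 on top of cytochalasin D (difference -3.84 ± 0.26, adjusted p = 6.77e-06). Its mean was 6.97 CPM in Ctrl and 141 CPM in CytoD, and 457 and 645 CPM in the 2 groups given CK666. Adipoq showed a difference of -2.76 ± 0.24, Retn -3.87 ± 0.46, G0s2 -2.58 ± 0.29 and Abcg1 -1.33 ± 0.13. Apcdd1 (-2.65 ± 0.39) and the fatty acid receptor Ffar2 (-4.57 ± 0.77) differed in the same direction. Retn and Ffar2 had means of 0.0919 and 0.0522 CPM in Ctrl, so few counts that the size of their difference depends on the count added before logs were taken. For Scd1 and Gpd1 the difference was not called, with adjusted p of 0.861 and 0.841.

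Other genes fell with CK666 where cytochalasin D was present and had a smaller fall, or were not called, without it. Cxcl12 means were 8331 CPM in Ctrl, 5956 in CK666, 18052 in CytoD and 5746 in CytoD+CK, and its log2 changes with CK666 were -0.48 without and -1.65 with cytochalasin D (difference -1.17 ± 0.21, adjusted p = 0.00328). Vcam1, in the same order, stood at 210.0, 172, 494 and 179 CPM (difference -1.17 ± 0.26). Fgfr2 was at 123, 135, 303 and 148 CPM (difference -1.17 ± 0.14), and Mmp13 at 8.52, 4.21, 69.4 and 13.6 CPM (difference -1.33 ± 0.15). Vcam1 and Fgfr2 were not called with CK666 alone (log2 -0.29 and 0.13). In each of these 4 genes the CytoD mean was the highest of the 4 groups. The CytoD libraries enter both steps, so no test sets the rise with cytochalasin D against the fall with CK666. The difference was also called for Dkk2 (-2.56 ± 0.45) and Bmp4 (-0.95 ± 0.13), lower in both backgrounds, and for Hhip (-1.68 ± 0.35) and C1s (-1.47 ± 0.17), whose changes with CK666 alone were 0.13 and 0.25 and not called.

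For 157 genes CK666 was called in opposite directions in the 2 backgrounds. The difference was called for all 157, but 2 called changes of opposite sign make that nearly certain, so it adds no evidence. Gas6, a ligand of the TAM receptors, held 329.6, 315 and 312 CPM in the untreated libraries and 376, 399.9 and 437 CPM with CK666 alone, a rise of 0.34 on the log2 scale, and 819, 989.6 and 954 CPM in CytoD and 407, 435 and 427 CPM in CytoD+CK (difference -1.46 ± 0.12, adjusted p = 2.6e-05). Rbp4 rose with CK666 alone (log2 2.38) and fell on top of cytochalasin D (-1.11), as did Cxcl1 (1.19 and -1.02). The reverse was seen for Mical2 (-0.85 and 0.44) and Pgk1 (-0.32 and 0.51). In the cholesterol list the difference was called higher for 15 of 24 genes, and with CK666 alone 13 of the 24 fell and 2 rose. Hsd17b7 had a difference of 0.99 ± 0.24, Slc7a11 2.21 ± 0.35 and Psat1 0.73 ± 0.12.

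In the contractile and SRF lists the genes called lower with CK666 were 14 of 17 and 19 of 22 without cytochalasin D, and 11 of 17 and 9 of 22 with it. In CytoD against Ctrl 13 of the 17 and 16 of the 22 were called lower, so most members started from a lower level in CytoD. The difference was called higher for 12 genes of each list and lower for 1 contractile gene and no SRF target. Acta2 had 3005, 2999 and 3122 CPM in the untreated libraries and 595, 669.6 and 837 CPM with CK666 alone, and its log2 changes were -2.12 without and -0.44 with cytochalasin D (difference 1.68 ± 0.17, adjusted p = 6.88e-05). Tagln (1.56 ± 0.20), Ctgf (1.72 ± 0.26), Itga11 (1.18 ± 0.12), Thbs1 (1.18 ± 0.23), Fn1 (0.98 ± 0.19) and Actg1 (0.66 ± 0.13) had differences in the same direction. For mitosis genes the difference was called for 1 of 22, and 21 of 22 fell with CK666 alone.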

How the data were processed

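Raw read counts per gene were deposited by the authors for 12 mouse libraries in 1 table of 23358 rows. CASAVA, TopHat, HTSeq and the build hg19 are named in the submitters' processing notes; hg19 is a human build, while 99.92% of the 12184 symbols placed once in GENCODE overlapped the mouse gene of that name on GRCm38. Every deposited count was even. The 12 per-sample RPKM columns of the table were not used.

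Counts were tested with edgeR 4.0.16 (quasi-likelihood, robust, TMM scaling, R 4.3.3) in 1 fit of 4 groups, after the low-count filter with a minimum count of 10. The contrast was CytoD+CK minus CytoD, and the difference was that contrast minus CK666 minus Ctrl. Genes at a Benjamini-Hochberg adjusted p under 0.05 were called, and levels are TMM-scaled CPM computed from the counts. Errors are standard errors of the log2 change. The procedure was tested on simulated data with far fewer changed genes than were called here, in random directions. That run cannot speak for the scaling or the call counts in these data. The shallowest library of the contrast had a floor of 0.0617 CPM for 3 counts. RefSeq promoters were matched for 10634 of 13534 genes.

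Named genes were the 15 largest called changes in each direction with a mean of at least 1 CPM and no overlap, the 4 largest called in each list, the 6 largest differences in each direction, and a set of checks; not all are printed. Acsl1, Pnpla2, G0s2, Elovl6, Fasn, Rbp4, Slc2a4, Pdk4, Itga7, Col6a3, Podn, Ccne1, Pgk1 and Gas6 were chosen after their values were seen. Members and lists were chosen with earlier results of these data known. Alternatives changed the scaling, filter, tool (DESeq2 1.42.0), samples, replicate block, halving of counts, Rn45s, gene length and single libraries. Some genes are not reported here.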

Additional observations from a re-analysis of the deposited data

Results flagged for a closer look

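The change with CK666 differed between cells with and without cytochalasin D for 1941 genes by edgeR's test of the difference itself. The genes below were chosen from them, each with its log2 difference (with minus without). None of the 20 named genes whose difference lost its call under a setting is among those chosen. A larger rise without cytochalasin D gave Plin1 -3.84, Adipoq -2.76, G0s2 -2.58, Retn -3.87, Abcg1 -1.33, Apcdd1 -2.65 and Ffar2 -4.57. A lower change with cytochalasin D present was found for Bmp4 (-0.95), Mmp13 (-1.33), Dkk2 (-2.56) and Cxcl12 (-1.17), which were called lower in both backgrounds, and for Fgfr2 (-1.17), Vcam1 (-1.17), Hhip (-1.68) and C1s (-1.47), which were not called with CK666 alone. Calls of opposite sign in the 2 backgrounds gave Rbp4 -3.49, Cxcl1 -2.21, Gas6 -1.46, Mical2 1.29 and Pgk1 0.83. Hsd17b7 (0.99), Slc7a11 (2.21) and Psat1 (0.73) rose with cytochalasin D present and were not called with CK666 alone. A larger fall without cytochalasin D gave Acta2 1.68, Tagln 1.56, Ctgf 1.72, Thbs1 1.18, Itga11 1.18, Fn1 0.98 and Actg1 0.66. Groups of 3 are too small for a check of single outlying libraries.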

How the results depend on the processing

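No named gene or difference changed sign under the settings run. The balance of calls did: 2121 higher and 1934 lower became 1823 and 2131 with RLE scaling, 1546 and 2296 with upper quartile scaling, 1761 and 1834 without a filter, 1730 and 1992 at a mean of at least 1 CPM, 1842 and 2086 with halved counts, 1862 and 2060 without Rn45s, and 2044 and 2324 with DESeq2. The 4055 called genes were 3954 with RLE scaling, 3842 with upper quartile scaling, 3595 without a filter, 3722 at a mean of at least 1 CPM, 5157 with the gene length trend removed, 5586 in a fit of the contrast's groups alone, 5779 without CK666 replicate 3 and 4368 with DESeq2, which shared 3944. Leaving out 1 library of the contrast gave 2897 to 3639, with 1484 to 1871 higher and 1391 to 1768 lower, and at least 2-fold changes of 202 to 276 higher and 448 to 553 lower. Same-numbered libraries of CytoD and CytoD+CK deviated together with correlations of 0.256, 0.116 and 0.064. CytoD replicate 1 had -0.173 and -0.140 with CytoD+CK replicates 2 and 3. CytoD+CK replicate 1 had -0.184 and -0.133 with CytoD replicates 2 and 3. Between replicates 2 and 3 of the 2 groups the values were 0.109 and 0.0994. Replicate 1 thus deviated alike in both groups, and whether the numbers pair the samples was not tested. The replicate block gave 4168 genes, and a replicate block in a fit of CytoD and CytoD+CK alone, added after the data were seen, gave 6565 (3361 higher, 3204 lower). The difference with and without cytochalasin D was called for 1941 genes, for 2934 with the gene length trend removed, for 2069 with the replicate block, and for 1099 to 3443 on leaving out 1 library: 1132 and 1152 without Ctrl replicate 2 and 3, 1099 and 1116 without CytoD replicate 2 and 3, and 3443 without CK666 replicate 3. The causes of these shifts were not tested. Of 2609 values for the 145 named genes under the settings, 32 lost and 7 gained the call, in 10 genes. Of 1302 values for the differences of 62 named genes, 163 lost the call, in 20 genes. Of 936 list counts 50 moved by over 1.5 times, in 18 lists. Depth limits genes near the floor of 3 counts.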
